A study of Homo sapiens with 12 samples.

Results

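The transcriptional response to BMP4 in MIB1 knockout lung cancer cells was measured as the contrast between 3 MIB1 KO BMP-on and 3 MIB1 KO BMP-off libraries. These 6 of the 12 RNA-seq libraries in the series were chosen by their labels, and the other 6 are the matching MIB1 WT libraries. All 12 came from MIB1-iKO cells, a derivative of the NCIH838 lung cancer line in which doxycycline (Dox) switches on Cas9 directed at MIB1. The study describes these as clonal lines, so the results rest on the clone or clones used. KO cells were kept for 3 days in 0.5 μg/mL Dox and 50 nM LDN, a BMP receptor kinase inhibitor written as LDN189193 in the treatment protocol and LDN193189 in the design text. WT cells had the same LDN and no Dox. Cells were then replated and given 10 ng/mL BMP4 for 24 hours, with 50 nM LDN for the BMP-off arm and DMSO instead for the BMP-on arm. BMP4 was thus present in both arms, and the contrast is the removal of LDN. BMP signaling and any other effect of LDN cannot be told apart in it, and no KO library lacked Dox.

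Bone morphogenetic proteins bind receptor complexes that join type I with type II kinases, and these phosphorylate SMAD1, SMAD5 and SMAD9. These join SMAD4, enter the nucleus and switch on target genes, many of which encode inhibitors of the pathway itself, such as the inhibitory SMADs, the secreted antagonist noggin and the pseudoreceptor BAMBI. In epithelial cells the pathway is known for restraining proliferation and for inducing the ID proteins, which block basic helix-loop-helix transcription factors. MIB1 is a RING-type E3 ubiquitin ligase best known for acting on Notch ligands.

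KO libraries held 19124010 to 29029025 counts each, and the deepest library of the series 29498000. MIB1 (ENSG00000101752) was at 31.0 to 34.4 CPM (counts scaled to a common library size by TMM) in the 6 KO libraries and at 144 to 176 CPM in the 6 WT libraries, so the targeted transcript followed the labels. With BMP-on, MIB1 in KO cells moved by -0.07 on the log2 scale (standard error 0.075, edgeR adjusted p = 0.521). The epithelial keratins KRT8, KRT18 and KRT7 were among the detected markers of the labelled tissue, whereas KRT19 had at most 2 counts in any KO library. The 7 epithelial markers summed to 150 to 165 RPKM with BMP-off and 174 to 205 RPKM with BMP-on. The leukocyte marker PTPRC and the endothelial markers KDR and EMCN were at 0 in all 6 libraries. The 10 leukocyte markers summed to 2.35 to 3.48 RPKM with BMP-off and 2.69 to 3.45 RPKM with BMP-on, and the 7 endothelial markers to 0.175 to 0.310 and 0.0997 to 0.124 RPKM. The 8 fibroblast markers summed to 10.2 to 12.5 RPKM with BMP-off and 13.8 to 15.3 RPKM with BMP-on. Of these, COL1A1 rose (1.39), as did PDGFRB (0.92), and THY1, the most abundant, was at 0.00, while COL1A2, COL3A1 and DCN had at most 4 counts. The endothelial marker CDH5 was called lower (-2.28) at 1 to 14 counts per library. The part of other cells in the response was not tested. A GC trend set libraries of a group apart: across genes, Spearman's rho between transcript GC content and the deviation from the group was -0.60 in KO BMP-off replicate 2 and 0.59 in replicate 3. Both are among the controls of this response, and their part in it was examined by leaving each out and by a GC correction. Nothing in the labels says that replicates were separate cultures, so p-values measure the spread between these samples.

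BMP-on changed KO cells mainly upward among the large changes. Of 17188 genes tested, 286 (1.66%) were called, where a call needed both a p of at most 0.05 after Benjamini-Hochberg adjustment in edgeR's quasi-likelihood test and a size of at least 1 on the log2 scale. Of these, 243 (1.41%) were higher and 43 (0.250%) lower with BMP-on. With limma-voom after quantile normalization, the study's procedure, the split was 207 higher and 71 lower, or 74.5% higher instead of 85.0%. Without KO BMP-off replicate 3 the calls numbered 443. At the adjusted p alone the directions were nearly even, with 1903 genes higher (11.1%) and 1874 lower (10.9%), and 3491 of these changes were less than 2-fold. CPM ranges of both KO groups did not overlap for 6146 genes (35.8%), and for 282 of the 286 called genes. The called genes had a median log2 fold change of 1.29 upward and -1.21 downward, against 0.0056 over all genes tested. Genes called higher had a median transcript GC content of 57.5%, against 47.3% for those called lower and 47.8% for all genes tested, and 171 of the 243 and 32 of the 43 were still called after the GC correction.

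**Figure D1:**
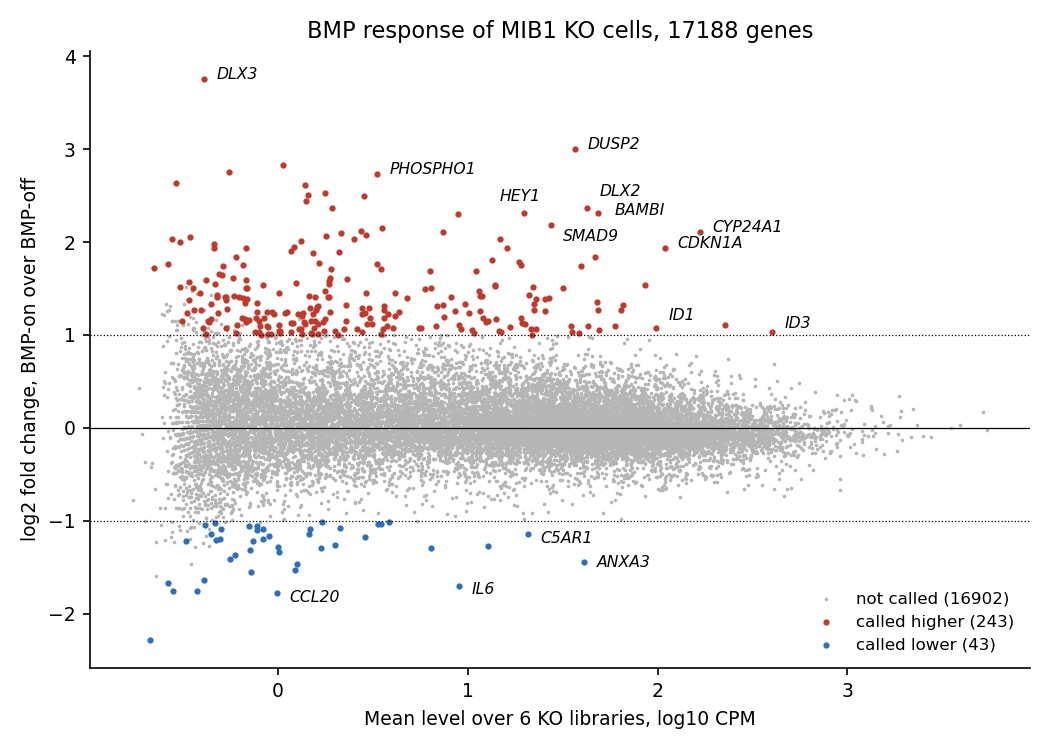
Each point is a gene, placed by its mean level over the 6 KO libraries (log10 CPM, horizontal) and its log2 fold change of BMP-on over BMP-off (vertical), with dotted lines at the fold threshold. The 243 genes called higher (red) reach across the range of levels up to ID3, whereas most of the 43 called lower (blue) lie at low levels, with ANXA3, C5AR1 and IL6 as the more abundant exceptions.

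The ID genes, a widely used readout of BMP signaling, rose by 2.05- to 2.62-fold. ID1 (ENSG00000125968) was at 69.7, 51.6 and 68.3 CPM in the BMP-off libraries and at 143, 125 and 131 CPM in the BMP-on libraries. ID1 thus rose by 1.08 on the log2 scale (standard error 0.11, edgeR adjusted p = 1.87e-05). ID2 stood at 12.3, 11.6 and 14.2 CPM with BMP-off and at 30.8, 34.9 and 34.3 CPM with BMP-on, a log2 fold change of 1.39 (standard error 0.11). ID3, by far the most abundant of them in reads per length (221 RPKM with BMP-off and 442 with BMP-on), went from 269, 203 and 314 CPM to 585, 515 and 511 CPM, a log2 fold change of 1.03 (standard error 0.14). For all 3 genes every BMP-on library lay above every BMP-off library. After the GC correction ID1 and ID3 were at 0.91 and 0.93, still past the adjusted p but under the fold threshold.

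BAMBI, NOG and SMAD9, which act within the pathway itself, had larger fold changes than the ID genes. BAMBI (ENSG00000095739), which encodes a receptor lacking the kinase domain, was at 15.9, 16.7 and 16.1 CPM with BMP-off and at 75.1, 85.8 and 81.3 CPM with BMP-on, 4.97-fold higher. NOG (ENSG00000183691), encoding the ligand trap noggin, went from 2.79, 3.13 and 3.03 CPM to 13.7, 16.5 and 14.2 CPM, 4.94-fold higher. SMAD9 (ENSG00000120693), a receptor-activated SMAD, went from 9.94, 9.92 and 9.68 CPM to 43.3, 46.0 and 45.3 CPM (log2 fold change 2.19, standard error 0.074, edgeR adjusted p = 1.14e-11). In these 3 genes the replicates of a group lay far closer to each other than the groups did. The inhibitory SMADs changed less. SMAD6 (ENSG00000137834) rose from 6.84, 6.47 and 6.14 CPM to 17.1, 17.3 and 17.6 CPM, and SMAD7 from 28.9, 25.6 and 26.9 CPM to 67.7, 79.1 and 61.3 CPM, with log2 fold changes of 1.42 (standard error 0.10) and 1.35 (standard error 0.093).

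Transcription factors formed the third group of called BMP targets. DLX2, a homeobox factor of skeletal and forebrain development, went from 15.1, 11.97 and 14.3 CPM to 65.5, 78.1 and 70.3 CPM (log2 fold change 2.37, standard error 0.10). HEY1, a helix-loop-helix repressor shared with the Notch pathway, went from 6.49, 6.63 and 6.86 CPM to 31.1, 33.7 and 34.2 CPM (log2 fold change 2.31, standard error 0.087). DLX3 had at most 0.0803 CPM in the BMP-off libraries, with 1 library at 0, and 0.728 to 0.783 CPM in the BMP-on libraries, so that the size of its change is poorly defined. GATA2, a zinc finger factor of hematopoietic and endothelial cells, rose by 1.54 (standard error 0.11), ATOH8 by 1.71 (standard error 0.19) and the homeobox gene MSX2 by 1.27 (standard error 0.082) on the log2 scale. The groups overlapped in none of these factors.

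Of the 33 BMP target genes listed, 26 were tested and 15 were called higher, against 1.41% of all genes. Their median log2 fold change was 1.17, against 0.0056 over all genes tested. At the adjusted p alone 18 were higher, adding KLF10 (0.54), TBX3 (0.57) and DLX1 (0.56), where 11.1% of all genes were higher. RUNX2 (-0.56), STC1 (-0.51) and TFAP2A (-0.29) were lower. MSX1, RUNX3, SMURF1, BMPER and SNAI2 did not pass, SNAI2 at 0.78 with an adjusted p of 0.0956. For 23 of the 26 the groups did not overlap, where 35.8% of all genes did not. All 15 called genes stayed past the adjusted p of 0.05 under each alternative that gave a value. This list, like the other lists used here, was chosen with earlier results of these data known. Its shares therefore describe its members and are no independent test.

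**Figure D2:**
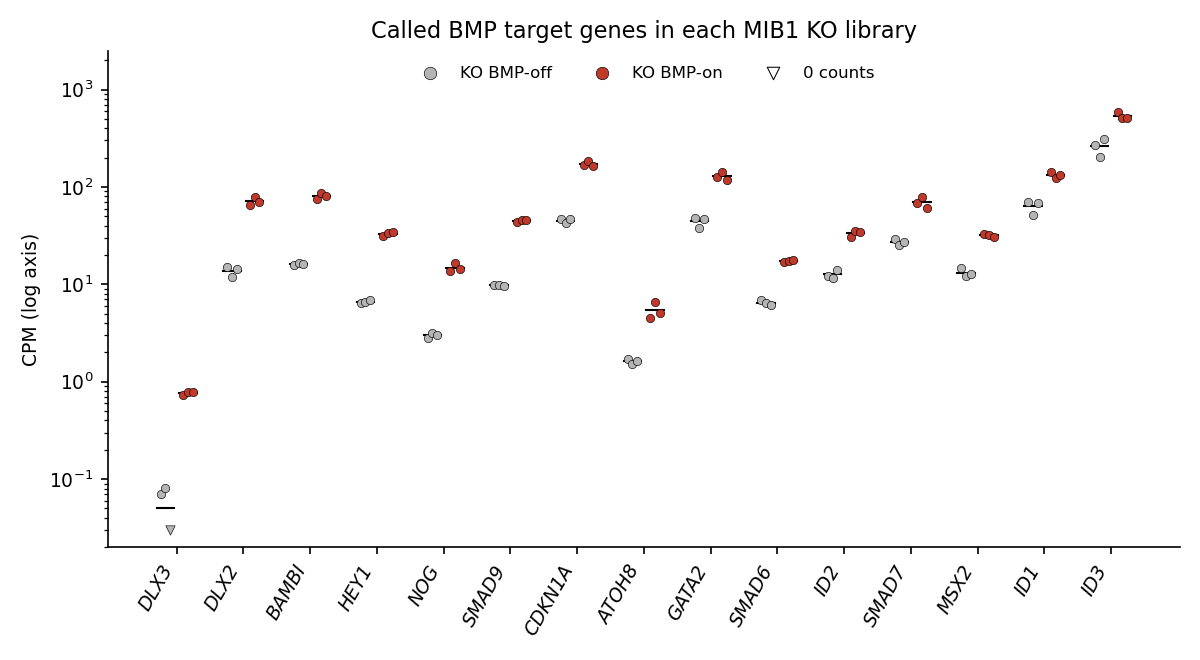
CPM on a log axis for the 15 called BMP target genes, ordered from the largest to the smallest log2 fold change, with 1 point per KO library (gray, BMP-off; red, BMP-on), horizontal bars at the group means and a triangle for a library with 0 counts. In each gene the 3 red points lie above the 3 gray points, with ID3 the most abundant and DLX3 near the detection limit.

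The promoters of 4 of these genes are shown because they carry the SMAD-type motifs discussed here. They run from 250 bases before to 50 bases after the start in RefSeq (GRCh38.p14), and capitals mark motifs bound by SMADs, searched on both strands. The first motif was GGCGCC. The second was GGAGCC, which reads GGCTCC on the opposite strand. The palindrome GTCTAGAC was the third. The last was CAGAC, reading GTCTG on the opposite strand. BAMBI is on chromosome 10 from 28677271 to 28677570 (plus strand), SMAD6 on chromosome 15 from 66701986 to 66702285 (plus strand), SMAD9 on chromosome 13 from 36920189 to 36920488 (minus strand) and ID1 on chromosome 20 from 31605039 to 31605338 (plus strand).
BAMBI: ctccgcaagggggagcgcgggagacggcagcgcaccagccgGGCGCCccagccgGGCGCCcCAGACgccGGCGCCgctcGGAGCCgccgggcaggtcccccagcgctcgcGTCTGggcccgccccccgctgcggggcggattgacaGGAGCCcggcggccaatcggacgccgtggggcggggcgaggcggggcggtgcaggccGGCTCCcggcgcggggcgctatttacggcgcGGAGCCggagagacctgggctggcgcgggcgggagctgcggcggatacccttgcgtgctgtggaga
SMAD6: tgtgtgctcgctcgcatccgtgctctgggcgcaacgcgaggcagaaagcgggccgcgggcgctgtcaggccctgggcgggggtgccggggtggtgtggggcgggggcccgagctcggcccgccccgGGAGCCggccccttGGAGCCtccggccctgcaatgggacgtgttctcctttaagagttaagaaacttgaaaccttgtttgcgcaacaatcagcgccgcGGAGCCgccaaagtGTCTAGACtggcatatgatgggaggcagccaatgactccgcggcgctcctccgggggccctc
SMAD9: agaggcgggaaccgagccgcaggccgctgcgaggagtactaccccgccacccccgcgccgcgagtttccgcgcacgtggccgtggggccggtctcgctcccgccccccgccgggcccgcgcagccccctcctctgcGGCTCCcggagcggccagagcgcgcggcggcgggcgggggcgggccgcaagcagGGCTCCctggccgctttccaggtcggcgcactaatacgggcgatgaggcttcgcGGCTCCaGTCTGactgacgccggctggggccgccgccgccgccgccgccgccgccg
ID1: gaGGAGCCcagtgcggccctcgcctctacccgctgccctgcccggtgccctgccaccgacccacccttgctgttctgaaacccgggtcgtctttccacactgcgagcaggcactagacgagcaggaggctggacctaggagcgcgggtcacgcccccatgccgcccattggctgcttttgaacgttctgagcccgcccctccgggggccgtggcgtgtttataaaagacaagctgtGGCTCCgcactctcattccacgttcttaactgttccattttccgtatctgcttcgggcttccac
The BAMBI promoter held 3 GGCGCC and 4 GGAGCC matches, the first 3 of them between positions -209 and -181 from the start. SMAD6 held 3 GGAGCC matches and a GTCTAGAC match at position -12, a motif found in 15 of the 11129 tested genes with a promoter in the table (0.135%). SMAD9 held 3 GGAGCC matches and ID1 held 2. Of the 15 called BMP targets, 12 had a promoter in the table, and 8 of those 12 held GGCGCC or GGAGCC. The same was true of 60.8% of the promoters of all tested genes and 68.0% of the 169 promoters of genes called higher, so the share among the BMP targets was near the background. GATA2, ID2, SMAD7 and MSX2 held neither motif in this window.

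Upstream in the pathway, the response was small. Among 13 receptor genes tested, BMPR2, the type II receptor for BMPs, rose from 168, 180 and 157 CPM to 223, 254 and 235 CPM (log2 fold change 0.49, standard error 0.075, edgeR adjusted p = 0.000295), and ACVR1 (ALK2) rose by 0.22 (standard error 0.060, edgeR adjusted p = 0.0168). TGFBR3, the co-receptor betaglycan, fell from 580, 581 and 564 CPM to 352, 337 and 351 CPM (log2 fold change -0.73, standard error 0.046, edgeR adjusted p = 2.79e-08). Every BMP-on library lay well below every BMP-off library. The other 10 receptors and co-receptors did not pass, among them BMPR1A (0.20, standard error 0.086), TGFBR1 (-0.13, standard error 0.059), TGFBR2 (-0.01, standard error 0.051) and ACVR2B (-0.18, standard error 0.079). The median of the 13 was -0.01. With 2 higher and 1 lower, their shares were not far from the 11.1% and 10.9% over all genes. After the GC correction 4 of the receptor genes were higher and 1 lower, with a median of 0.097, where the median of all genes was 0.04.

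The share of ligand genes that passed was near that over all genes, with 2 of 15 higher (11.1% over all genes) and 2 lower (10.9%). TGFB1 (0.52, edgeR adjusted p = 0.0194) and GDF11 (0.20, adjusted p = 0.0295) were higher, and TGFB2 (-0.88, adjusted p = 0.000148) and BMP8B (-0.33, adjusted p = 0.0159) lower. TGFB1 was at 0.20 after the GC correction, and its adjusted p was 0.068 without KO BMP-on replicate 1 or without the filter on low counts. The endogenous BMP4 transcript was at 1.65 to 2.06 CPM with BMP-off and 1.98 to 2.60 CPM with BMP-on and did not pass (0.36, standard error 0.19). BMP6, the most abundant BMP ligand transcript per length at 20.1 RPKM with BMP-off, did not pass either (0.18, standard error 0.075). Among 13 antagonists tested, BAMBI and NOG rose while TWSG1 (-0.28) and FSTL1 (-0.21), encoding extracellular BMP-binding proteins, fell. FSTL1 went from 691, 726 and 686 CPM to 604, 607 and 607 CPM. CHRD, encoding chordin, averaged 0.416 ± 0.278 and 0.876 ± 0.341 CPM (SD, n = 3 each) and did not pass. FSTL3 stood at 0.13 and changed sign with the GC correction (-0.22).

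The SMAD genes moved in both directions, with 3 of 8 higher (11.1% over all genes) and 4 lower (10.9%). SMAD6, SMAD7 and SMAD9 rose as above, whereas SMAD3 (-0.30, edgeR adjusted p = 0.000428), SMAD2 (-0.22, adjusted p = 0.0102), SMAD4 (-0.20, adjusted p = 0.0168) and SMAD5 (-0.16, adjusted p = 0.0295) fell. SMAD3 was at 88.2, 85.4 and 85.4 CPM with BMP-off and 70.1, 72.4 and 67.7 CPM with BMP-on. SMAD1 did not pass (0.16, standard error 0.065). After the GC correction 4 SMAD genes were higher, SMAD1 then among them, and 1 was lower. The lower gene was SMAD3 (-0.28). The other decreases no longer passed, with SMAD2 at -0.10, SMAD4 at -0.08 and SMAD5 at -0.01. Among 20 SMAD cofactors and ubiquitin ligases tested, 4 rose and 3 fell, not far from the 11.1% and 10.9% over all genes. SKI (0.53), CTDSP1 (0.41), SMURF2 (0.30) and SKIL (0.20) were the increases, and TRIM33 (-0.27), NEDD4L (-0.27) and NEDD4 (-0.17) the decreases.

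Of 21 tested genes usually listed as SMAD3 targets, 13 were higher and 2 lower at the adjusted p, against 11.1% and 10.9% over all genes, with a median of 0.30. LOX, encoding the collagen cross-linking enzyme lysyl oxidase, went from 3.98, 4.34 and 4.33 CPM to 10.2, 11.6 and 9.87 CPM (log2 fold change 1.32, standard error 0.13). COL1A1 rose by 1.39, PTHLH, encoding parathyroid hormone-related protein, by 1.04 and FN1, encoding fibronectin, by 0.56. SMAD7, JUNB and BHLHE40 belong to this list and to others. THBS1 (-0.92) and CCN1 (-0.24) fell, and CCN2 (0.16) did not pass.

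Of 10 repressors tested in a list of HES and HEY genes with BHLHE40 and BHLHE41, 6 rose (11.1% over all genes) and 0 fell (10.9%), with a median of 0.47. After the GC correction 5 were higher and 2 lower. HES1 went from 11.5, 11.3 and 12.2 CPM to 25.1, 28.0 and 26.4 CPM (log2 fold change 1.18, standard error 0.080), next to HEY1 above. BHLHE41 (0.89), HES6 (0.82), HEYL (0.35) and BHLHE40 (0.26) were the others. HES2, HES4, HES7 and HEY2 did not pass. Leaving out KO BMP-off replicate 2 reduced the 6 to 4. Among 20 genes of the Notch pathway, 3 rose and 4 fell, shares near the 11.1% and 10.9% over all genes. LFNG, encoding a glycosyltransferase that modifies Notch receptors, rose by 1.24 (standard error 0.16, edgeR adjusted p = 5.09e-05), and JAG1, a ligand gene, by 0.37 (adjusted p = 0.000144). MIB2, the paralog of MIB1, went from 4.36, 2.29 and 6.52 CPM to 10.7, 8.36 and 8.78 CPM (log2 fold change 1.09, standard error 0.26, adjusted p = 0.0134). Its BMP-off libraries followed the GC trend, and the GC-corrected value was 0.67 with an adjusted p of 0.00031. NOTCH1 (0.00), NOTCH2 (-0.27) and NOTCH3 (0.32) did not pass.

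**Figure D3:**
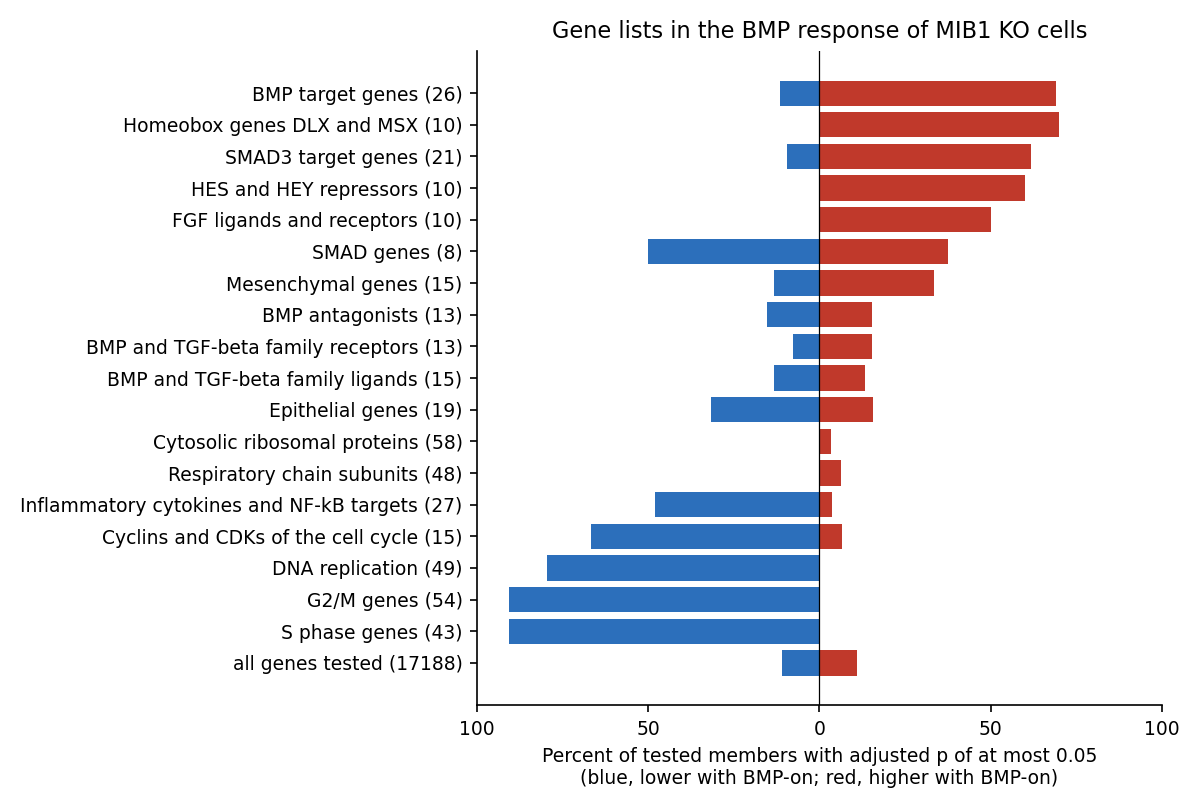
Percent of the tested members of each list with an adjusted p of at most 0.05, higher (red, to the right) or lower (blue, to the left) with BMP-on, with the number tested in parentheses and all genes tested at the bottom. Lists at the top rise, with 18 of 26 BMP targets higher, and the S phase, G2/M and DNA replication lists at the bottom fall, with 0 members higher. The lists were chosen with earlier results of these data known.

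The largest increases included genes outside the usual BMP list. The rule took the 20 largest among called genes with a mean of at least 50 counts and groups that did not overlap, and these ran from 3.00 to 1.81 on the log2 scale. DUSP2 (ENSG00000158050), encoding a nuclear MAP kinase phosphatase, had the largest, going from 8.62, 5.95 and 9.84 CPM to 62.7, 72.0 and 61.0 CPM (8.01-fold, edgeR adjusted p = 1.57e-06). PHOSPHO1, encoding a phosphatase of bone mineralization, followed with 1.12, 0.844 and 0.631 CPM against 5.44, 5.59 and 6.45 CPM (6.62-fold). CYP24A1, the vitamin D 24-hydroxylase, went from 62.3, 64.5 and 61.1 CPM to 273, 277 and 260 CPM (4.31-fold, adjusted p = 3.38e-13). In all 3 the BMP-on libraries lay above the BMP-off libraries with a wide gap.

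SOCS2, a feedback inhibitor of cytokine receptors, went from 20.8, 20.3 and 20.7 CPM to 71.5, 74.1 and 74.9 CPM (log2 fold change 1.83, standard error 0.054). Its antisense neighbour SOCS2-AS1 rose by 2.08, and since the genes overlap and the use of strand in counting is not stated, their reads cannot be fully told apart. FGFR3, a fibroblast growth factor receptor, rose from 6.64 ± 1.06 to 25.4 ± 0.918 CPM (SD, n = 3 each). NECTIN4, an adhesion molecule, rose by 2.49 and ADGRF4, an adhesion G protein-coupled receptor, by 2.10. UNC5B, a netrin receptor, rose by 2.10, CRIP2 by 2.03, CARMIL2 by 1.81 and CCDC74B by 2.12. CES1P2 (2.04) is a pseudogene whose reads may be shared with its relatives. CRIP2 and CARMIL2 had a low KO BMP-off replicate 2, at 3.37 and 3.62 CPM against 6.73 to 7.49 CPM in the other 2 libraries, and were at 1.65 and 1.45 after the GC correction.

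CDKN1A (ENSG00000124762), encoding the CDK inhibitor p21, had the largest increase among the CDK inhibitors. CDKN1A was at 46.4, 42.3 and 46.9 CPM with BMP-off and at 169, 186 and 164 CPM with BMP-on (log2 fold change 1.94, standard error 0.074, edgeR adjusted p = 4.50e-11). CDKN2C, encoding p18, rose from 57.9, 52.1 and 57.2 CPM to 88.3, 92.1 and 89.5 CPM (0.69, standard error 0.057). CDKN3, a phosphatase gene expressed in dividing cells, fell (-0.32, adjusted p = 0.000606). CDKN1B (-0.11, standard error 0.055), CDKN1C (-0.16, standard error 0.26) and CDKN2D (-0.13, standard error 0.13) did not pass, and CDKN2A and CDKN2B were not tested. CDKN1A also belongs to the list of p53 targets. Of 26 tested there, 5 rose (11.1% over all genes) and 4 fell (10.9%), with a median of 0.00. TP53INP1 (0.92) was the next largest increase in that list, and FAS (-0.67) and DDB2 (-0.63) were the largest decreases.

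Genes of the cell cycle fell together, each by a small amount. Of 43 S phase genes tested, 39 were lower and 0 higher at the adjusted p, against 10.9% lower over all genes tested, and the median log2 fold change was -0.45. Of 54 G2/M genes, 49 were lower and 0 higher (median -0.43), and of 49 DNA replication genes 39 were lower and 0 higher (median -0.36). Of the 3 lists, 40, 49 and 38 genes had groups that did not overlap, where 35.8% of all genes tested did not. None of the genes in these lists was called, since none reached a 2-fold change. TOP2A, encoding the topoisomerase of mitotic chromosomes, was at 1153, 1170 and 1059 CPM with BMP-off and at 701, 695 and 731 CPM with BMP-on (log2 fold change -0.67, standard error 0.051, edgeR adjusted p = 1.81e-07). ANLN, encoding the cytokinesis protein anillin, went from 619, 653 and 577 CPM to 382, 404 and 394 CPM (-0.65, standard error 0.057). E2F8, encoding a repressive E2F, went from 55.9, 55.7 and 51.0 CPM to 33.9, 35.8 and 31.4 CPM (-0.69, standard error 0.068).

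Further members spanned the cycle. EXO1 (-0.64) acts in recombination, PRIM1 (-0.54), GINS1 (-0.57) and POLD3 (-0.52) in replication forks, and CDK1 (-0.50) drives mitotic entry. The proliferation marker MKI67 had a larger spread, at 410, 461 and 420 CPM with BMP-off and 254, 330 and 263 CPM with BMP-on (adjusted p = 0.0313, and 0.058 after the GC correction). Of 15 cyclin and CDK genes, 10 fell (10.9% over all genes), led by CCNA1 (-1.18, the 1 called) and CCNE2 (-0.59), and CCND1 rose by 0.26. CDK4 (-0.03), CDK6 (0.05) and CCNE1 (0.15) did not pass. Within the E2F and retinoblastoma family 6 of 17 fell, E2F8, RBL1 (-0.59), E2F7 (-0.58) and E2F2 (-0.50) the most, while E2F4 rose (0.23) and RB1 (-0.04) and E2F1 (-0.07) did not pass. Fewer dividing cells and less of these RNAs per cell cannot be told apart in bulk RNA.

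The direction of the lists held in each library. Relative to the mean of the BMP-off libraries, with 0.01 CPM added, the median over S phase genes was 0.03, 0.04 and -0.07 in the BMP-off libraries and -0.44, -0.43 and -0.44 in the BMP-on libraries on the log2 scale. The G2/M medians were 0.01, 0.05 and -0.05 against -0.43, -0.44 and -0.41. Over all genes tested the same quantity stayed within -0.005 to 0.010 in the 6 KO libraries. After the GC correction 39 S phase genes, 46 G2/M genes and 42 DNA replication genes were lower, with medians of -0.36, -0.36 and -0.30, where the median of all genes was 0.04. Without KO BMP-off replicate 2 the numbers were 39, 47 and 40, and without replicate 3 they were 39, 49 and 40.

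**Figure D4:**
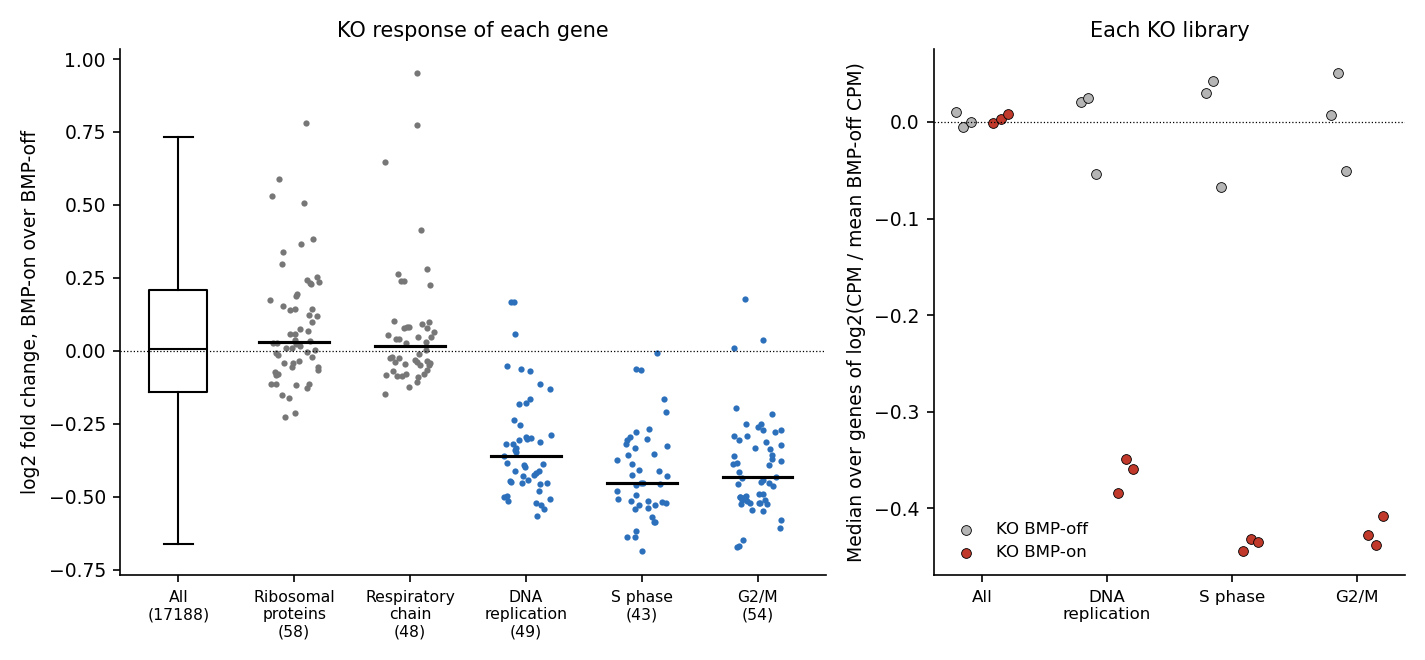
Left, the log2 fold change of BMP-on over BMP-off for each gene of 5 lists, with bars at the medians, beside a box of all 17188 genes (median, quartiles and whiskers to the last value within 1.5 interquartile ranges). Right, the median over genes of log2 CPM relative to the BMP-off mean for each KO library (gray, BMP-off; red, BMP-on). The 3 cell-cycle lists lie between medians of -0.36 and -0.45, whereas ribosomal protein and respiratory chain genes lie near 0.

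Promoter motifs of these lists differed from those of the genes called higher. TTTGAA (both strands), the core of the CHR element of genes expressed in G2 and M phases, was found in 31 of 45 G2/M promoters in the table (68.9%), in 9.56% of the promoters of tested genes and in 21 of the 169 promoters of genes called higher (12.4%). TTTCCCGC or TTTGGCGC (both strands), forms of the E2F site, were found in 16 of 42 DNA replication promoters (38.1%), in 3.61% of tested genes and in 0 of the 169. The lists were defined by their cell-cycle expression, so these shares describe the genes and not their response to BMP.

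Decreases past the fold threshold were fewer. IL6 (ENSG00000136244), the cytokine gene, was at 12.8, 14.1 and 14.5 CPM with BMP-off and at 3.87, 4.60 and 4.35 CPM with BMP-on (log2 fold change -1.70, standard error 0.12, edgeR adjusted p = 6.63e-08). CCL20 (-1.78) and CXCL2 (-1.53), encoding chemokines, and SAA2 (-1.09), encoding an acute phase protein whose reads may be shared with SAA1, were called at low counts. CCL20 averaged 1.53 ± 0.182 and 0.449 ± 0.115 CPM (SD, n = 3 each). Of 27 inflammatory cytokine and NF-kB target genes tested, 13 fell (10.9% over all genes), 4 of them called (0.250%), and TNFAIP3 (0.19) rose, with a median of -0.25. NFKB2 (-0.36), BIRC3 (-0.30), NFKB1 (-0.27), NFKBIA (-0.25) and ICAM1 (-0.23) were among the small decreases. Without either KO BMP-off replicate 2 or 3 the falling genes numbered 14 and 12.

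Only 11 called decreases had a mean of at least 50 counts. After IL6, ANXA3 (ENSG00000138772), encoding a calcium-dependent phospholipid-binding protein, fell from 59.6, 65.9 and 54.9 CPM to 21.2, 23.7 and 21.4 CPM (log2 fold change -1.45, standard error 0.078). C5AR1, the complement C5a receptor, fell from 28.8, 25.5 and 31.4 CPM to 13.1, 11.6 and 13.9 CPM (-1.15, standard error 0.11). ARNT2 (-1.29), a bHLH-PAS factor, CRYBG2 (-1.27), KCNQ3 (-1.26), a potassium channel, CCNA1 (-1.18), ATP6V0A4 (-1.03), a proton pump subunit, the unnamed ENSG00000268734 (-1.03) and TOGARAM2 (-1.01) were also among the 11. In each of the 11 the BMP-on libraries lay below the BMP-off libraries.

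Epithelial and mesenchymal genes each had members moving in both directions. Of 19 epithelial genes, 3 rose (11.1% over all genes) and 6 fell (10.9%), with a median of -0.11. NECTIN4 and CLDN4 (1.55), a claudin, and ST14 (0.83), a membrane protease, were higher, and the lower genes included ELF3 (-1.31), an epithelial transcription factor, CLDN1 (-0.86), EPCAM (-0.61), OCLN (-0.57) and SPINT2 (-0.28). CDH1 did not pass (-0.04). After the GC correction 2 epithelial genes were higher and 9 lower, with a median of -0.26, where the median of all genes was 0.04. Among 15 mesenchymal genes, SNAI1 (1.07), PDGFRB (0.92), CDH2 (0.87), FN1 (0.56) and VIM (0.16) rose and AXL (-0.48) and S100A4 (-0.30) fell. Their median was 0.16, and after the GC correction 7 were higher and 3 lower, with a median of 0.21. SNAI1, encoding the repressor Snail, was at 15.9, 10.9 and 17.5 CPM with BMP-off and 30.6, 32.9 and 29.5 CPM with BMP-on. The keratin genes KRT15 (1.23), KRT7 (0.85), KRT8 (0.61) and KRT86 (0.60) rose and KRT17 (-0.73) and KRT80 (-0.49) fell, with reads possibly shared between paralogs.

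Lists of skeletal and matrix genes moved in both directions. Over all genes tested, 11.1% were higher and 10.9% lower at the adjusted p. In the osteochondral list, whose median was -0.09, PHOSPHO1, COL1A1, SOX9 (1.17) and ANKH (0.55) rose, while RUNX2 (-0.56) and BMP2K (-0.32) fell, of 11 tested. SOX9, a factor of cartilage, went from 8.30, 8.60 and 9.04 CPM to 19.9, 18.9 and 19.5 CPM. COL9A2, a cartilage collagen, rose by 2.61 from a mean of 0.398 CPM. Of 21 collagen genes 4 rose and 3 fell, and of 24 integrin and laminin genes ITGA7 (0.61) rose and 6 fell, with ITGB8 (-0.93) and LAMA3 (-0.67) the most. Among 10 DLX, MSX and related homeobox genes, 7 rose and none fell (median 0.63), with DLX4 at 0.86. Among 10 FGF ligand and receptor genes 5 rose and none fell, with FGF18 (1.00), FGF11 (0.63), FGFR4 (0.62) and FGFRL1 (0.54) after FGFR3.

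Growth arrest, stress and signaling feedback lists had changes in single members. GADD45B, a stress-inducible growth arrest gene, went from 12.8, 8.88 and 12.6 CPM to 31.0, 36.1 and 31.1 CPM (log2 fold change 1.51, standard error 0.13). YPEL3 (0.92) and FOXO4 (0.90) also rose in that list, in which 5 of 22 rose (11.1% over all genes) and 4 fell (10.9%). Immediate early genes had 6 increases of 20, led by JUNB (0.91), NR4A1 (0.80) and IER2 (0.65), and 2 decreases, IER5 (-0.31) and ATF3 (-0.29). JUNB ranged from 31.1 to 58.1 CPM with BMP-off and was at 0.57 after the GC correction. KLF4 (0.98), KLF13 (0.67) and KLF10 (0.54) rose and KLF6 (-0.54), KLF5 (-0.35), KLF12 (-0.26) and KLF11 (-0.25) fell. In the MAP kinase feedback list of 18 genes, DUSP1 (0.76) and SPRY2 (0.55) rose besides DUSP2, and DUSP5 (-0.32) and DUSP16 (-0.14) fell. DUSP6 (0.15) did not pass. The S100 gene S100P rose from 12.9, 11.6 and 13.7 CPM to 35.2, 29.0 and 31.9 CPM (1.33, standard error 0.097), and the retinoid reductase gene DHRS3 rose by 0.97.

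Housekeeping lists differed in how many members passed the adjusted p, where 11.1% of all genes were higher and 10.9% lower. Of 58 cytosolic ribosomal protein genes 2 rose and none fell (median 0.03), of 48 respiratory chain genes 3 rose and none fell (median 0.02), and of 30 ribosome biogenesis genes 6 rose and 2 fell (median -0.06). After the GC correction the first 2 lists had 5 and 13 increases and 2 decreases each. Of 29 lysosome and autophagy genes, 8 rose and 3 fell, with GAA (0.71), CTSD (0.65) and WIPI1 (0.64) leading. Among 33 genes of cholesterol and fatty acid synthesis, TM7SF2 (1.02) was among the called genes and the median was 0.05. No ephrin or EPH receptor gene of 12 tested passed the adjusted p, and none of 22 interferon-stimulated genes was called, with OAS3 (-0.83) falling most among the 6 that passed the adjusted p.

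The KO response was set beside that of WT cells, which had no Dox. In WT cells 73 genes were called (0.425%), 0.349% higher and 0.0756% lower, and 674 passed the adjusted p (3.92%), 1.91% higher and 2.01% lower. The WT log2 fold change was positive for 229 of the 243 increases called in KO cells and negative for 36 of the 43 decreases, though these genes were chosen on the KO values. Over all genes tested it was negative for 8501 of 17188. The difference between responses was tested as an interaction. No gene passed both thresholds (0.00%) in edgeR, 16 passed the adjusted p (0.0931%) and 1819 had an unadjusted p under 0.05 (10.6%), while DESeq2 gave 1 and 159. The 16 became 220 without KO BMP-off replicate 3, 236 without WT BMP-off replicate 1 and 4 to 14 without any 1 of the other 10 libraries.

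In all 16 genes the KO response was the larger one and had the direction of the WT response. The 7 larger increases (0.0407%) were BAMBI, HEY1, SOCS2, HTRA1, PPP1R3C, CYP24A1 and CDKN1A. SOCS2 had the smallest adjusted p, with a log2 fold change of 1.83 in KO and 0.96 in WT cells and a difference of 0.88 (standard error 0.077, edgeR adjusted p = 7.2e-05). HTRA1, encoding a secreted serine protease that binds TGF-β family ligands, went from 8.16, 8.64 and 8.20 CPM to 28.8, 28.2 and 29.4 CPM in KO cells (1.79, against 0.99 in WT cells). PPP1R3C, encoding a glycogen-targeting phosphatase subunit, went from 14.4, 14.3 and 13.2 CPM to 27.1, 30.9 and 29.8 CPM in KO cells (1.07, against 0.29 in WT cells). The 9 larger decreases (0.0524%) were SHCBP1, NSD2, CDCA7L, TOP2A, PM20D2, KIF15, ARHGAP11A, ZNF367 and POLQ, several of them genes of mitosis or DNA repair. POLQ, encoding DNA polymerase theta, changed by -0.61 in KO and by -0.06 in WT cells (difference -0.56, standard error 0.097, edgeR adjusted p = 0.0413).

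Of the BMP pathway's own genes, BAMBI differed by 0.96 (standard error 0.12, edgeR adjusted p = 0.00263) and NOG by 0.85 (standard error 0.19, adjusted p = 0.0849). Differences from gene to gene were not tested. SMAD6 (-0.02, standard error 0.15), SMAD7 (0.24, standard error 0.13) and SMAD9 (-0.22, standard error 0.11) did not pass, nor did ID1 (0.13, standard error 0.15), ID2 (0.10, standard error 0.15) and ID3 (0.43, standard error 0.19). DUSP2 (1.24, standard error 0.28, adjusted p = 0.138) and PHOSPHO1 (1.36, standard error 0.31, adjusted p = 0.0897) had larger differences with larger errors. The median difference was -0.28 over S phase genes (43 of 43 negative), -0.25 over G2/M genes (51 of 54) and -0.23 over DNA replication genes (46 of 49), against 0.01 over all genes tested (8185 of 17188 negative). Within these lists 1 gene, TOP2A, passed the interaction test.

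**Figure D5:**
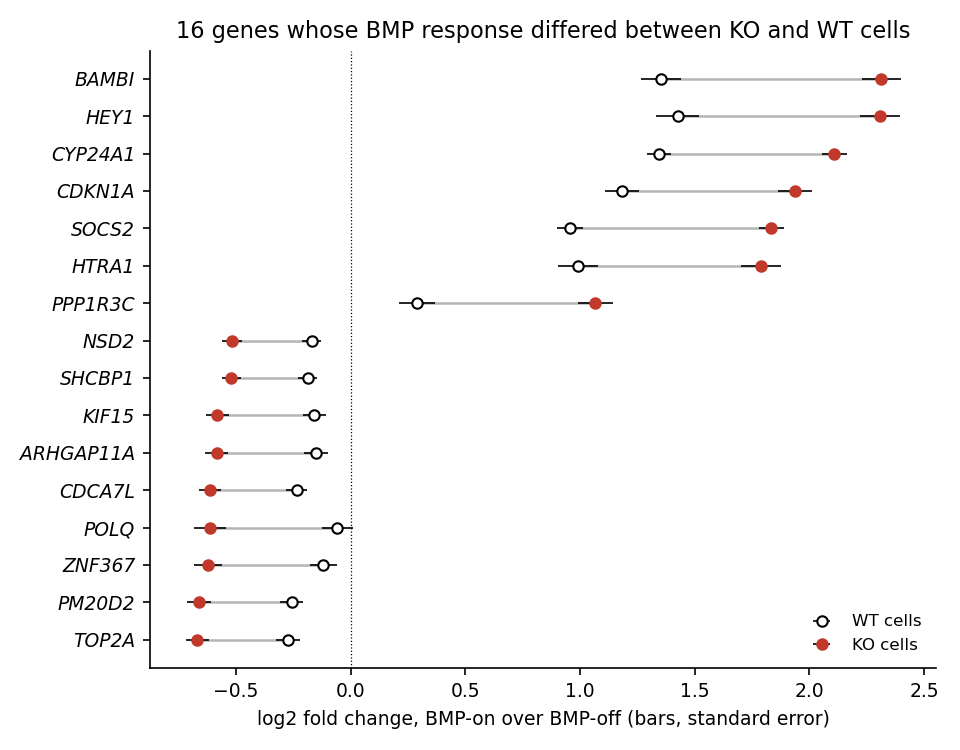
log2 fold change of BMP-on over BMP-off in WT cells (open circles) and KO cells (red) for the 16 genes past the adjusted p of 0.05 in the interaction test, with bars for the standard error and a line joining both values. In each gene the KO value lies farther from 0, from BAMBI at 2.31 against 1.35 to TOP2A at -0.67 against -0.27.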

How the data were processed

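RNA was sequenced as single-end 50-base reads; the labels name a low-input and a stranded mRNA kit without saying which was used. The authors removed ribosomal reads, aligned with GSNAP to GRCh38 and deposited raw counts per gene, read on exons of RefSeq genes. They also deposited RPKM values, used here for alternatives and for levels per length. Of 58302 identifiers, 57532 had a GENCODE v44 symbol. All 12 libraries in 4 groups of 3 entered 1 fit in edgeR 4.0.16 (R 4.3.3, robust quasi-likelihood, TMM scaling, filterByExpr, 17188 genes), with contrasts for the KO response, the WT response and their difference. The fit was tested on simulated data without a GC trend, with changes only in genes averaging at least 50 counts, so neither the GC trend nor lower counts were covered. Depth was 19124010 to 29498000 counts per library. The members and the 54 lists, with S phase and G2/M genes from Seurat 5.3.0, were chosen with earlier results of these data known. Named genes were the 20 largest increases and up to 15 decreases (called, mean of at least 50 counts, groups not overlapping), called list members or else up to 4 that passed, every tested ligand, receptor, antagonist, SMAD, CDK inhibitor, HES or HEY gene, and genes passing the difference. Further list members, such as NOTCH1, CCN2, CDK4 and RB1, were named after their values were seen. Alternatives were DESeq2 1.42.0, limma 3.58.1 (voom with quantile normalization, and log2 RPKM with 1 or 0.1 added), other scalings and filters, a replicate block, a loess GC correction and each library left out. No deposited column was left out. A few genes are not reported here.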

Additional observations from a re-analysis of the deposited data

Results flagged for a closer look

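In the main fit the interaction test gave 16 genes an adjusted p of at most 0.05 (edgeR quasi-likelihood test) for a difference in BMP response between KO and WT cells. Which genes passed depended on the processing. Over all alternatives, 214 results for these genes kept direction and side of the threshold, and 170 lost the threshold. On the log2 scale, KO response minus WT response, the increases differed for BAMBI by 0.9613, HEY1 by 0.8832, SOCS2 by 0.8776, HTRA1 by 0.7981, PPP1R3C by 0.7765, CYP24A1 by 0.7654 and CDKN1A by 0.7518. The decreases differed for SHCBP1 by -0.3330, NSD2 by -0.3462, CDCA7L by -0.3763, TOP2A by -0.3959, PM20D2 by -0.4029, KIF15 by -0.4237, ARHGAP11A by -0.4339, ZNF367 by -0.5030 and POLQ by -0.5559. The KO libraries had Dox and the WT libraries did not, so MIB1 loss and Dox cannot be told apart in these differences.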

How the results depend on the processing

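The 286 genes called in KO cells (243 higher, 43 lower) became 174 (154 and 20) with at least 10 counts in every library, 55 (52 and 3) on log2(RPKM + 1) with a mean of at least 0.1, 54 (51 and 3) without that filter, and 3777 (1903 and 1874) at the adjusted p alone. The genes called lower were 28 with DESeq2 and 71 with limma-voom. Leaving out each library gave 247 to 443 calls, 205 to 390 higher and 35 to 53 lower, with the highest values without KO BMP-off replicate 3. The 73 WT calls became 16 on log2(RPKM + 1), with or without the filter, and 674 at the adjusted p alone. The difference between responses had 0 calls in edgeR, 1 with DESeq2, 15 with no filter on low counts, 4 with the GC correction, 16 at the adjusted p alone and 0 to 8 without 1 library. Its 16 genes at the adjusted p became 159 with DESeq2, 10 scaled by library size, 318 with no filter, 157 with the GC correction, 4 on log2(RPKM + 1), 2 on log2(RPKM + 0.1) and 4 to 236 without 1 library. The causes were not tested.

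Deviations from the group mean correlated above 0.1 in 2 of 18 same-numbered pairs and 0 of 3 KO pairs. These deviations carry the GC trend, so they cannot decide whether libraries of the same number shared a culture or batch. With the replicate block the KO calls were 281 and the genes with a difference 3, and the block with the GC correction gave 116 with a difference, 2 of them called. The KO change of FSTL3 reversed to -0.22 with the GC correction alone and with the block, BMP1 to -0.17 in both, and SOCS3 to -0.022 and -0.020. Of the results for single genes in KO cells over all alternatives, 5968 kept direction and side of the threshold, 396 lost the threshold and 30 gained it. Low counts limit genes such as DLX3, whose log2 fold change was 0.34 on log2(RPKM + 1).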

Other observations

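Several called genes outside the lists were chosen after their values were seen. ACTC1, encoding cardiac actin, went from 16.7, 17.6 and 20.3 CPM to 61.1, 63.0 and 58.8 CPM (log2 fold change 1.74, edgeR adjusted p = 7.95e-11). NEBL (1.25), ANKRD1 (1.12) and MYPN (1.06), which encode other proteins of muscle, were also called, and no list of such genes was counted. BDKRB2, a bradykinin receptor gene, went from 3.35, 3.49 and 3.16 CPM to 9.70, 8.88 and 9.79 CPM (1.51), and its neighbour on chromosome 14, BDKRB1, rose by 2.07. DIO2, encoding the deiodinase that activates thyroid hormone, went from 38.1, 38.6 and 36.3 CPM to 89.0, 98.1 and 96.6 CPM (1.33). FURIN, encoding a protease that matures BMP and TGF-β precursors, rose by 1.11 and by 0.85 after the GC correction.

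Noncoding neighbours of 2 BMP targets rose beside them. GATA2-AS1 went from 5.21 ± 0.561 CPM to 16.9 ± 0.220 CPM with SD and n = 3 each (log2 fold change 1.69), and DLX2-DT rose by 1.78. GATA2-AS1 overlaps GATA2 and the use of strand in counting is not stated, so reads of the overlap cannot be told apart. Of the Wnt pathway, the receptor gene FZD1 (1.12) and DACT1 (1.08) were called, also chosen after their values were seen. Neither belongs to the list of Wnt feedback and target genes. Of the 14 tested in that list 0 were called, where 1.66% of all genes were. At the adjusted p 5 of them rose (11.1% over all genes) and 2 fell (10.9%).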
